A study of Mus musculus with 4 samples.

Results

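Cornified envelope and barrier genes encode the proteins, cross-linking enzymes, proteases, lipid enzymes and transcription factors that turn the outer cells of the epidermis into a sealed layer. The list holds 45 genes, chosen by name without keratins or desmosomal genes, and 33 of them had at least 1 probe set that the array annotation gives to that gene alone. Each gene was read from its probe set with the highest mean log2 signal over the 4 arrays, and the 33 genes were described against all 12393 genes read in the same way.

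Total RNA came from living cells sorted by flow cytometry from mouse back skin on postnatal day 49, which the study places in telogen, the resting stage of the hair cycle. Every mouse carried K14-GFP-actin, in which the keratin 14 promoter of basal keratinocytes drives GFP fused to actin. The bulge group, with 2 arrays, was gated on GFP together with high α6 integrin and high CD34, surface proteins of basal stem cells in the follicle bulge. The total group, with 2 arrays, took every GFP cell, bulge cells included. Whether replicates are separate mice is not stated, so the p-values cover only the spread between these arrays, which may be technical, and so few arrays limit precision.

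In the epidermis, basal keratinocytes leave the basement membrane and move outwards through the spinous and granular layers. In the granular layer they build the cornified envelope, in which transglutaminases cross-link loricrin, involucrin, small proline-rich proteins and late cornified envelope proteins beneath the membrane. Lipoxygenases, elongases and ceramide synthases supply the lipids around it, and proteases process filaggrin and later cut the junctions that hold the dead cells.

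The gate and the arrays were checked first. Cd34, a sorting gene, had signals of 14034 and 15697 on bulge replicates 2 and 1, against 1144 and 844 on total replicates 2 and 1. Itga6 encodes α6 integrin, the other surface protein of the bulge gate. Its signals were 1693 and 3312 on bulge replicates 2 and 1, against 3491 and 5642 on total replicates 2 and 1. Itga6 RNA thus lay lower on both bulge arrays, whereas the gate reads surface protein. The typical signal was similar, with array medians of 126.7 and 128.8 on bulge replicates 2 and 1, against 123.6 and 145.0 on total replicates 2 and 1. All 10 bulge markers listed, Cd34 included, lay higher on both bulge arrays than on both total arrays. The bulge arrays differed from each other more than the total arrays did: replicate differences, replicate 2 minus replicate 1, had an SD of 0.92 on the log2 scale in the bulge group and 0.55 in the total group, over the 7249 genes with a group mean above the background level, and of 1.05 and 0.84 over all 12393 genes. That level, a signal of 149.99, is the 95th percentile of 67 olfactory, vomeronasal and taste receptor genes. The replicate differences of the 2 groups correlated at r = 0.579 over the 7249 genes and at r = 0.295 over all genes, which are not independent replicates. Results on the barrier genes are therefore given for each array and with each array left out.

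No barrier gene passed the test between bulge basal cells and total epidermis. None of the 33 was called in the limma fit (two-sided, adjusted p under 0.05 over all genes), in which 0% of the 12393 genes were called although Calml3 was higher (5.18% of all genes were) and Evpl, Sprr1a and Grhl1 were lower (5.29% of all genes were) at an unadjusted p under 0.05. With an intensity trend in the variance, limma called 0.557% of all genes higher and 0.524% lower, and again 0 members. The members' median difference, bulge minus total, was -0.13 on the log2 scale, beside -0.02 over all genes. Both bulge arrays lay above both total arrays for 3 members, against 18% of all genes, and below them for 10 members, 30.3%, against 20.5% of all genes. In bulk samples, fewer cells of a type and less RNA per cell cannot be told apart.

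The widest gaps among the barrier genes lay between the 2 replicates of the bulge group. Bulge replicate 2 lay over 2-fold above bulge replicate 1 for 17 of 33 members, 51.5%, against 13.9% of all genes, while it lay over 2-fold below for 3 members, against 14.2%. In the total group, replicate 2 lay over 2-fold above replicate 1 for 3 members, 9.09%, against 5.33% of all genes. Of the 21 members with a group mean above background, 11 were over 2-fold higher on replicate 2 in the bulge group (13.5% of such genes) and 1 in the total group (3.01% of such genes). The median difference, replicate 2 minus replicate 1, was 1.002 for members in the bulge group and 0.20 in the total group, beside -0.05 and -0.14 for all genes.

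The direction of many bulge comparisons depended on which bulge array was used. Without bulge replicate 1, the median member difference, bulge minus total, was 0.48, and 17 members lay above both total arrays (36.4% of all genes did) and 13 below (39.9%). Without bulge replicate 2 it was -0.61, and 22 members lay below both total arrays (37.1% of all genes did) and 3 above (35.2%). Without total replicate 1, 3 lay above (34.7% of all genes) and 13 below (27.9%), and without total replicate 2, 8 lay above (26.7%) and 13 below (39%). The difference turned sign for 3 members without bulge replicate 1 and for 14 members without bulge replicate 2. It turned for 2 members without total replicate 1 and for 2 without total replicate 2. Some of those that turned, such as Flg, Hrnr, Lce3c and Alox12b, had both group means below background. The share of all genes that turned sign is not given here. Of the members, 12 could not be read for lack of a probe set of their own: Cnfn, Sprr2b, Lce1c, Csta1, Stfa1, Klk5, Spink5, Cers3, Abca12, Sbsn and Grhl3 have none in the annotation, and Sprr2a1 shares its probe sets with related genes. Another 9 of the 33 were above background on no array, and 12 were above it on all 4.

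**Figure D1:**
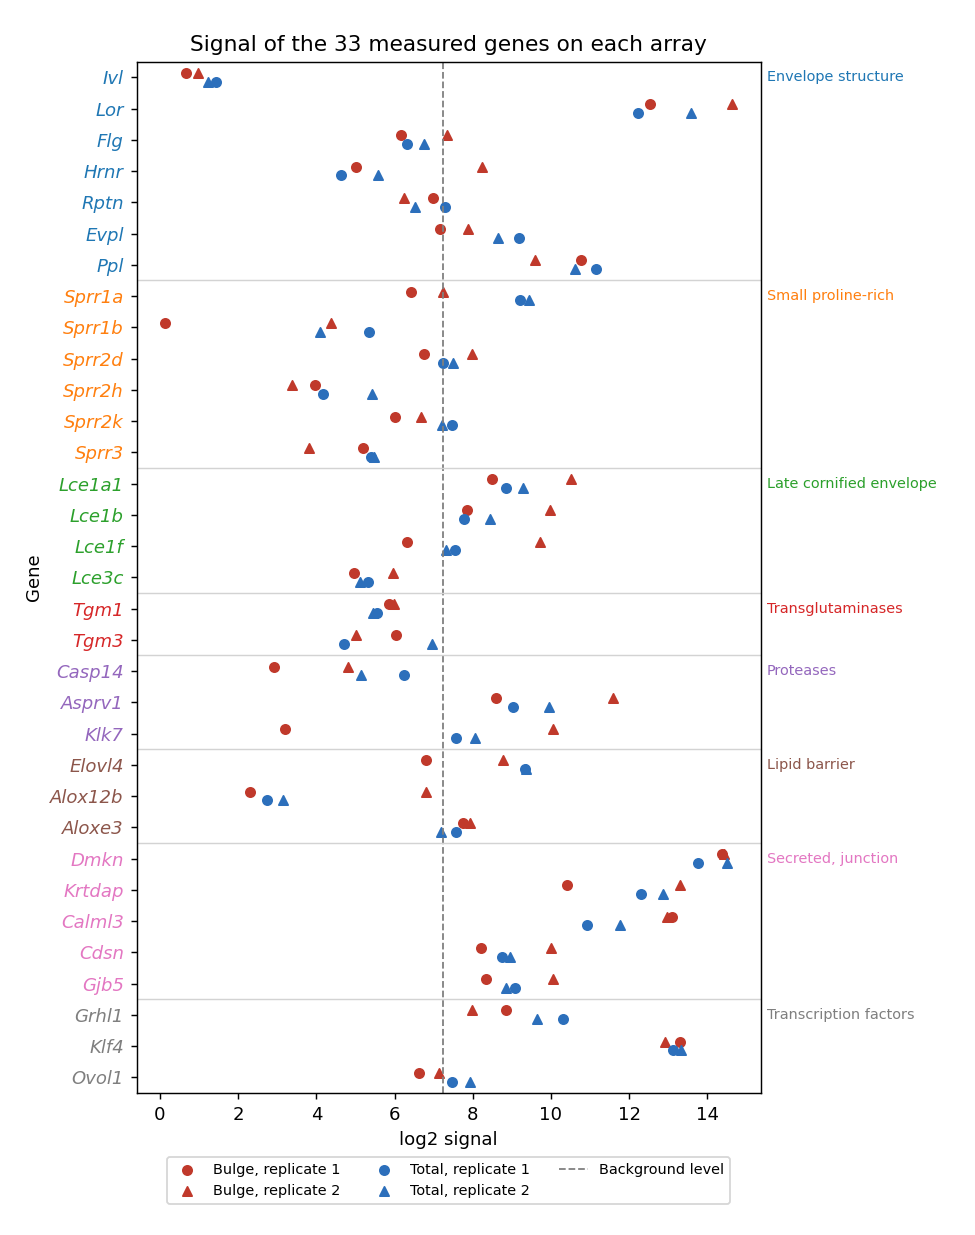
Log2 signal (x axis) of the 33 measured barrier genes (y axis, grouped by role) on bulge arrays (red) and total arrays (blue); circles are replicate 1, triangles replicate 2 and the dashed line is the background level. For Lor, Lce1b, Asprv1, Klk7, Krtdap and Cdsn the 2 bulge arrays lie further apart than the 2 total arrays.

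Promoters of 4 members, picked by name with their array values known, are shown, and each holds both TGANTCA and TATAAA. In windows of 300 bases, Flg, Ivl, Rptn, Sprr2d, Sprr2h and Sprr2k held both as well. Lor and Krtdap differed widely between the bulge arrays, Sprr1a had the lowest difference between bulge and total, and Sprr1b is its near relative. Other members over 2-fold higher on bulge replicate 2 went both ways. Klk7, Asprv1, Lce1a1, Lce1b and Cdsn held neither pattern in those windows, while Flg and Sprr2d held both. A link between these letters and the array values was not tested. Sequences are from RefSeq (GRCm38.p6), 150 bases before to 50 after the annotated start, 5′ to 3′ on the gene's strand. Capitals mark TGANTCA, in which N is any base, and TATAAA, the letters of the TATA box. The AP-1 element is TGAGTCA or TGACTCA, so TGANTCA is a looser pattern. The stretch marked in Sprr1b, TGAATCA, is not that element. Lor lies at chr3:92083093-92083292 on the minus strand, Krtdap at chr7:30787755-30787954 on the plus strand, Sprr1a at chr3:92485832-92486031 on the minus strand and Sprr1b at chr3:92438730-92438929 on the minus strand.
Lor: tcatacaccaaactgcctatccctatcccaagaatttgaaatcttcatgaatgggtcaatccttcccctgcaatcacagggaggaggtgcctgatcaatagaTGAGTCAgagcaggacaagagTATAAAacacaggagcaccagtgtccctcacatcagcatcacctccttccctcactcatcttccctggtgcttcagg
Krtdap: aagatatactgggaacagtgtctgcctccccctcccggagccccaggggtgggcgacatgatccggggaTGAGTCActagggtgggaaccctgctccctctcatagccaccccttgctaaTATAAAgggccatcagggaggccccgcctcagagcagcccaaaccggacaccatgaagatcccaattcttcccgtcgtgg
Sprr1a: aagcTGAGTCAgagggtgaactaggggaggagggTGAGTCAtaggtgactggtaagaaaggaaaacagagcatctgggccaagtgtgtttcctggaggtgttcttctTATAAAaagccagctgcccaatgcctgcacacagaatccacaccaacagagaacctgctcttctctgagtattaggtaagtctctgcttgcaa
Sprr1b: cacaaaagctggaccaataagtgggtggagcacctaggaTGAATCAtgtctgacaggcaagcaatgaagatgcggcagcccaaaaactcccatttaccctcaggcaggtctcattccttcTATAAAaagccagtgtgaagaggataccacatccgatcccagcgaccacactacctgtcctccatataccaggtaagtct

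Of the 33 members, 27 had a promoter window of 300 bases in the RefSeq table, from 250 before the start to 50 after it. TGANTCA was counted with any middle base, so more widely than the AP-1 element, and the pattern reads the same on both strands. It was in 11 of the 27 windows (40.7%) and in 7.93% of all 27025 windows, 1 per gene. TATAAA, on either strand, was in 14 of 27 (51.9%) and in 14.2% of all windows. The windows of Flg, Ivl, Rptn, Dmkn, Sprr2d, Sprr2h and Sprr2k held TGANTCA as well. AACCNGTT, the letters of the Grainyhead element, was in 1 of 27 windows, that of Rptn, and in 2.01% of all windows, while CACCC, a core of many Klf sites, was in 63% of the member windows and 56.7% of all. Family members share descent, so their windows are not independent, and a match is a description of letters alone. On mouse chromosome 3, which holds the epidermal differentiation complex, lay 15 of the 33 members, Lor and the small proline-rich and late cornified envelope genes among them.

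Among the envelope structural genes, loricrin was well above background on all 4 arrays. Lor, the glycine-rich protein that makes up much of the envelope, had signals of 25481 and 5966 on bulge replicates 2 and 1, against 12234 and 4782 on total replicates 2 and 1. Replicate 2 was the higher array in both groups, by 4.27-fold in the bulge group and 2.56-fold in the total group, and the groups overlapped. Lor was the only member over 2-fold higher on replicate 2 in both groups. Its difference, bulge minus total, was 0.69 ± 0.85 (SE) on the log2 scale, with a 95% interval from -1.47 to 2.85. A second Lor probe set gave replicate differences of 1.66 in the bulge group and 1.15 in the total group. Another, above background on 2 of 4 arrays, gave 0.67 in the bulge group and -0.39 in the total group, so the direction in the total group turned there.

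Other envelope and filament-binding genes were at or below background on most arrays. Hrnr, a filaggrin-like protein, had signals of 303 and 32.4 on bulge replicates 2 and 1, against 47.4 and 24.9 on total replicates 2 and 1, so that it stood above background on bulge replicate 2 alone, by at least 2.02-fold over bulge replicate 1. Flg, filaggrin, had 163 and 71.9 on bulge replicates 2 and 1, against 107 and 80.3 on total replicates 2 and 1, and passed background on bulge replicate 2 alone. Rptn, repetin, was above background on total replicate 1 alone, at 156, and Ivl, involucrin, was far below it on all 4 arrays, with signals from 1.58 to 2.72.

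The plakins, which anchor the envelope to desmosomes and keratin filaments, lay lower in the bulge group on the mean. Ppl, periplakin, had signals of 772 and 1735 on bulge replicates 2 and 1, against 1573 and 2298 on total replicates 2 and 1, with replicate 2 the lower array in both groups. Evpl, envoplakin, with replicate 2 the higher array in the bulge group and the lower in the total group, had 236 and 144 on bulge replicates 2 and 1, against 403 and 585 on total replicates 2 and 1. Both bulge arrays of Evpl lay below both total arrays, at a difference of -1.40 ± 0.46 (SE). The adjusted p was 0.357 in limma, and since 1 of 2 bulge arrays was above background the fold is at least 2.58 lower.

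Among the small proline-rich genes, Sprr1a had the clearest separation of the groups. These proteins are cross-linked into the envelope as bridges between larger partners. Sprr1a had signals of 151 and 86.3 on bulge replicates 2 and 1, against 692 and 593 on total replicates 2 and 1. Both bulge values of Sprr1a lay well under the total values, with a difference of -2.49 ± 0.45 (SE), the largest in size among the 21 members with a group mean above background, and at least 4.25-fold lower since bulge replicate 2 alone reached background. The adjusted p was 0.124 in limma and 0.0641 with the trend. With dim genes removed before the fit it was 0.0366 in limma, the only call of a member in any setting of this comparison. Sprr1a passed that filter through its total mean alone, its bulge mean being below background. The filter thus depended on the difference being tested, and the call under it adds no support.

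The other small proline-rich genes were dim. Of the 6 measured, 4 lay lower on both bulge arrays than on both total arrays (20.5% of all genes did) and 0 lay higher (18% of all genes did). Of those 4, Sprr2h and Sprr3 were above background on no array. Sprr2k had 102 and 64.2 on bulge replicates 2 and 1, against 149 and 177 on total replicates 2 and 1, at least 1.08-fold lower. Sprr2d had 251 and 108 on bulge replicates 2 and 1, against 182 and 152 on total replicates 2 and 1, and its groups overlapped. Sprr1b, Sprr2h and Sprr3 were above background on no array, so no fold is given for them. Related Sprr2 transcripts may share probes, and the Sprr2h probe set carries the suffix that marks probes shared between transcripts.

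Late cornified envelope genes, expressed late in the granular layer, lay over 2-fold higher on bulge replicate 2 than on bulge replicate 1 for the 3 measured above background. Lce1a1 had signals of 1471 and 363 on bulge replicates 2 and 1, against 620 and 466 on total replicates 2 and 1. Lce1b had 1004 and 233 on bulge replicates 2 and 1, against 345 and 218 on total replicates 2 and 1. Lce1f had 840 and 80.5 on bulge replicates 2 and 1, against 161 and 187 on total replicates 2 and 1. For these 3 genes bulge replicate 2 was the highest array of all 4, and replicate 2 exceeded replicate 1 in the bulge group by 4.05-fold, 4.30-fold and, from background, at least 5.60-fold. Lce3c was above background on no array, so its replicate fold is not given. The groups overlapped for all 4 genes, with differences, bulge minus total, between 0.24 and 0.82. A second Lce1a1 probe set gave a bulge replicate difference of 2.89, whereas a second Lce1f probe set was above background on no array. Lce1a1 and Lce3c were read from probe sets whose suffix marks possible cross-hybridisation, so values may be shared with other Lce genes.

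**Figure D2:**
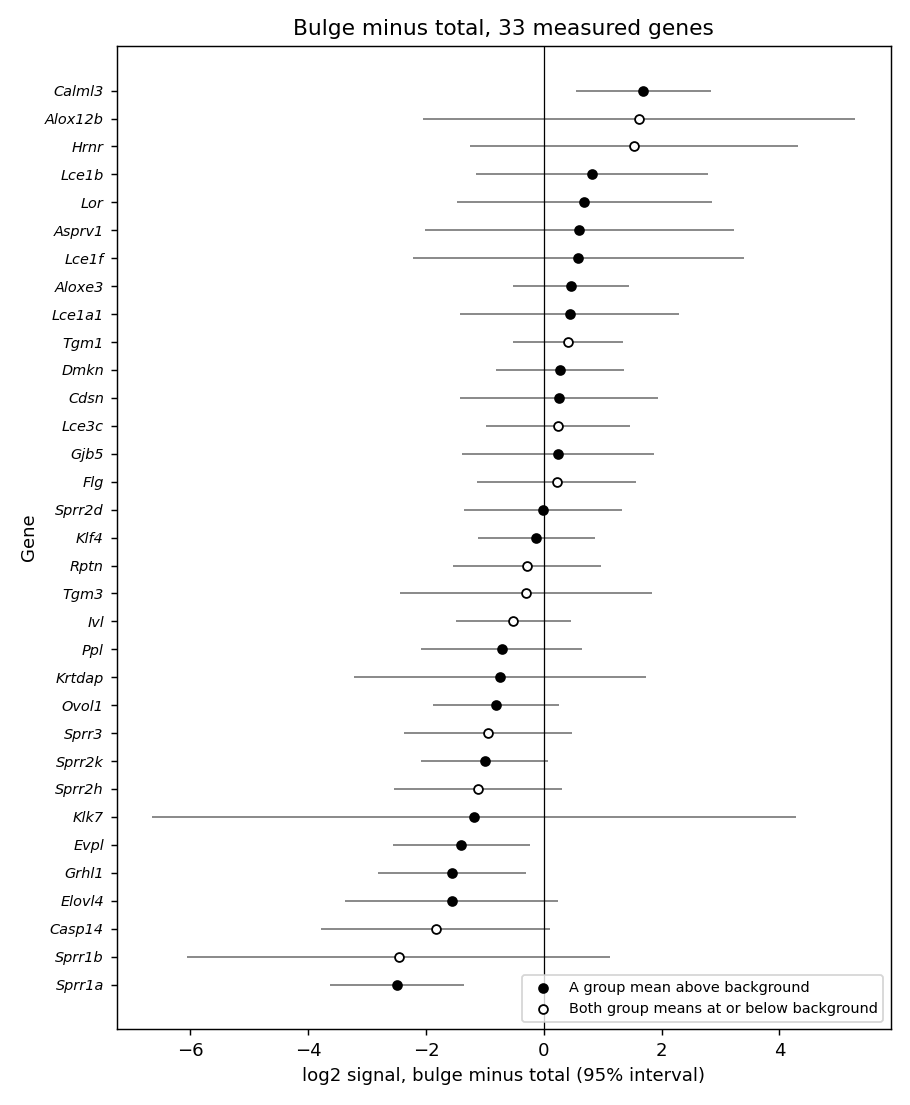
Difference in log2 signal, bulge minus total (x axis), with 95% intervals from limma (lines) for the 33 measured members (y axis), filled where a group mean was above background and open where neither was. Calml3 has the highest difference (1.69), Sprr1a the lowest (-2.49) and Klk7 the widest interval.

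Transglutaminases were not measurable at this signal. Tgm1 and Tgm3, which form the cross-links of the envelope, were above background on no array, with signals from 43.8 to 63.6 for Tgm1 and from 26.1 to 123 for Tgm3.

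The proteases Klk7 and Asprv1 lay far apart on the bulge arrays. Klk7, a kallikrein that cuts corneodesmosomes during shedding, had signals of 1058 and 9.12 on bulge replicates 2 and 1, against 265 and 189 on total replicates 2 and 1. It was thus the highest on 1 bulge array and below background on the other, at least 7.06-fold apart when background stands in for the dim array. Its difference, bulge minus total, was -1.19 with all arrays and 2.24 without bulge replicate 1. Asprv1, the aspartic protease that processes filaggrin, had 3076 and 386 on bulge replicates 2 and 1, against 992 and 522 on total replicates 2 and 1. Here replicate 2 was higher by 7.96-fold in the bulge group and 1.90-fold in the total group, and the groups overlapped. Casp14, a caspase of cornifying cells, was above background on no array.

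Lipid barrier genes had no common direction, and none was called. Elovl4, which makes the very long fatty acids of barrier ceramides, had signals of 441 and 112 on bulge replicates 2 and 1, against 664 and 652 on total replicates 2 and 1. Both bulge arrays of Elovl4 lay below both total arrays, by a difference of -1.57 ± 0.71 (SE), at least 2.56-fold with 1 of 2 bulge arrays above background, and an adjusted p of 0.567 in limma. That size rests on bulge replicate 1: the difference was -0.58 without it and -2.56 without bulge replicate 2. The second Elovl4 probe set, above background on 1 of 4 arrays, gave -0.42. Between the bulge arrays it gave a replicate difference of 0.37, against 1.98 for the probe set used. Aloxe3, a lipoxygenase acting on barrier lipids, had 245 and 214 on bulge replicates 2 and 1, against 145 and 190 on total replicates 2 and 1, a difference of 0.47 without overlap. Alox12b, the lipoxygenase that acts before it, was above background on no array and reached 112 on bulge replicate 2, against 4.90 on bulge replicate 1.

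Secreted and junction proteins of the suprabasal layers held both steady and variable genes. Dmkn, dermokine, was well above background and nearly equal on the bulge arrays, with signals of 21903 and 21408 on bulge replicates 2 and 1, against 23114 and 13984 on total replicates 2 and 1. Calml3, a calmodulin-like protein of epithelial cells, had 8073 and 8785 on bulge replicates 2 and 1, against 3494 and 1947 on total replicates 2 and 1. Both bulge values of Calml3 exceeded both total values, 3.23-fold on the mean, with a difference of 1.69 ± 0.45 (SE), a 95% interval from 0.55 to 2.83 and an adjusted p of 0.25 in limma. With any 1 array left out the difference lay between 1.27 and 2.11. Its sign could not turn there, because the groups did not overlap.

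Krtdap, a secreted protein of differentiating keratinocytes, had 10045 and 1368 on bulge replicates 2 and 1, against 7546 and 5097 on total replicates 2 and 1. Its bulge arrays thus enclosed both total arrays, 7.34-fold apart. Cdsn, the corneodesmosome adhesion protein, had 1025 and 299 on bulge replicates 2 and 1, against 495 and 432 on total replicates 2 and 1. Gjb5, a connexin of gap junctions, had 1059 and 326 on bulge replicates 2 and 1, against 461 and 538 on total replicates 2 and 1. Bulge replicate 2 was the highest array and bulge replicate 1 the lowest for all 3 of these genes.

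None of the 3 measured transcription factors of differentiation was over 2-fold apart on the bulge arrays. Klf4, a factor needed for barrier formation, had signals of 7708 and 10164 on bulge replicates 2 and 1, against 10360 and 9011 on total replicates 2 and 1, and its difference was -0.13 with a 95% interval from -1.12 to 0.86. Grhl1, a Grainyhead-like activator of desmosomal genes, had 253 and 465 on bulge replicates 2 and 1, against 808 and 1264 on total replicates 2 and 1. Both bulge arrays of Grhl1 lay below both total arrays, 2.95-fold on the mean, at a log2 difference of -1.56 ± 0.50 (SE). The adjusted p was 0.34 in limma. Ovol1, a zinc finger factor that restrains proliferation of epidermal progenitors, had 141 and 99.6 on bulge replicates 2 and 1, against 246 and 177 on total replicates 2 and 1, at least 1.39-fold lower. Both bulge values of Ovol1 were below background, so a gap between them could not be read.

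**Figure D3:**
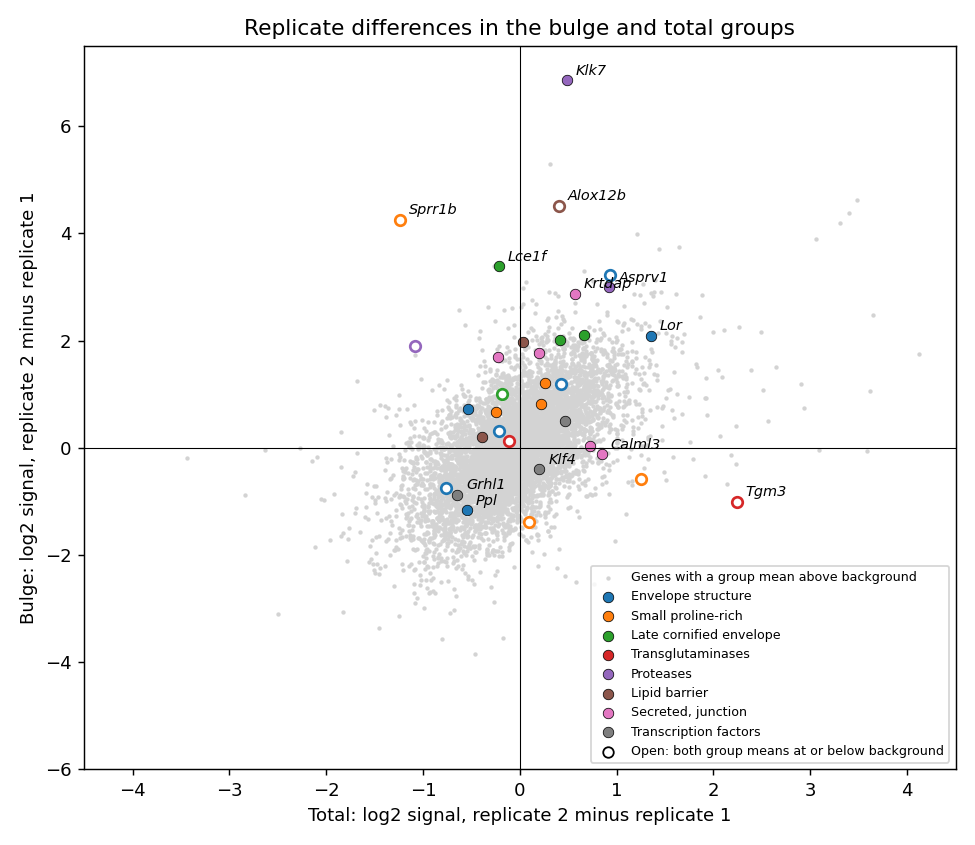
Log2 difference, replicate 2 minus replicate 1, in the total group (x axis) and in the bulge group (y axis) for the 33 members (coloured by role, open where both group means were at or below background) and for 7249 genes with a group mean above background (grey). Klk7, Lce1f, Krtdap and Asprv1 lie high on the bulge axis and within 1 of 0 on the total axis.

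The replicate comparison was also fitted across both groups, with group as a covariate, to ask which genes differed between arrays numbered 2 and 1. No label says what arrays of one number share, and this fit has 1 residual degree of freedom. In limma 0% of genes were called, and 5 members were higher on replicate 2 and 0 lower at an unadjusted p under 0.05, against 4.83% and 7.67% of all genes. With the trend, 0.516% of all genes were higher on replicate 2 and 0.46% lower, and Asprv1 was the 1 member called, with a difference of 1.96 ± 0.59 (SE) in the fit without trend and an adjusted p of 0.0485 in limma with the trend. Lor had an adjusted p of 0.0513 in the same fit and a difference of 1.72. Replicate 2 was the higher array in both groups for 15 members, 45.5%, against 26.5% of all genes, and the lower in both for 3, against 38.6%.

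**Figure D4:**
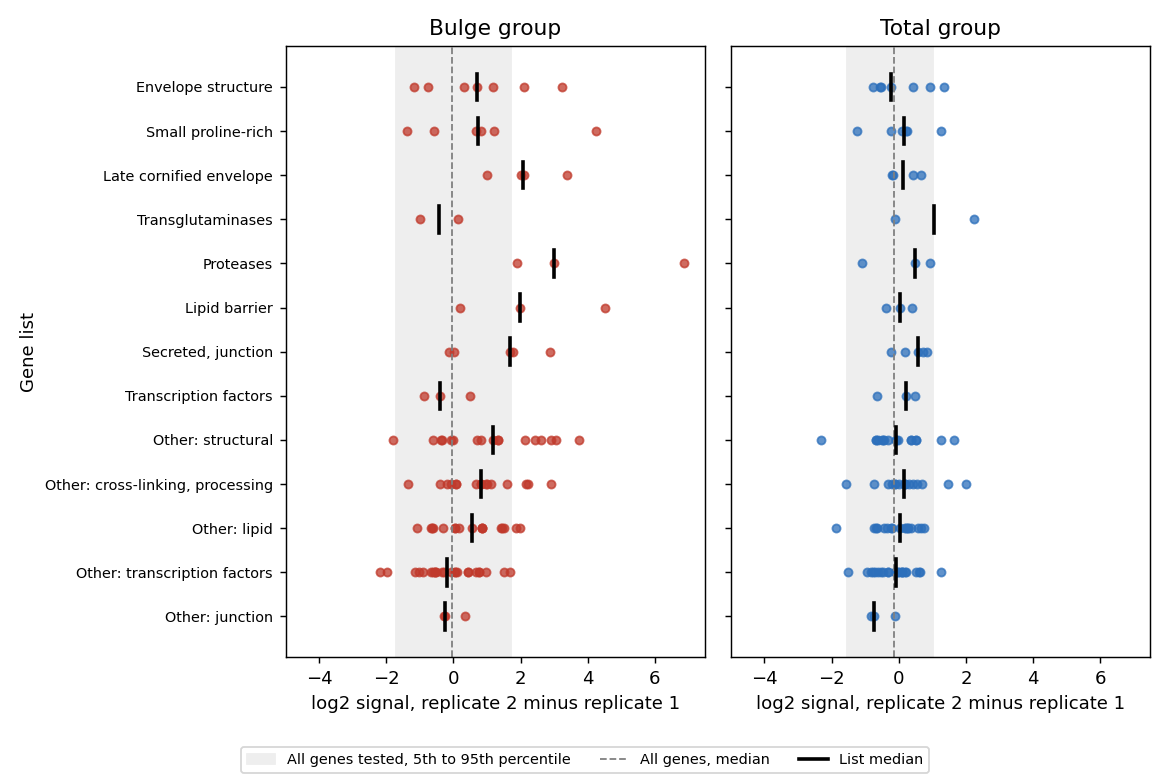
Log2 difference, replicate 2 minus replicate 1 (x axis), in the bulge group (left) and the total group (right) for each measured gene (points) of the 8 member roles and of 5 lists of other barrier genes (y axis), with list medians (black bars). The band spans the 5th to 95th percentile of all genes tested. List medians of proteases (2.99), late cornified envelope genes (2.06) and lipid barrier genes (1.98) lie beyond its upper edge in the bulge group. Proteases and lipid barrier genes are 3 genes each, and the lipid median is the value of Elovl4.

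Other genes of the barrier, 124 listed and 77 measured, were set beside the members. In limma 0 of the 77 were called, 13 lay above (18% of all genes did) and 23 below (20.5% of all genes did) without overlap, and the median difference was -0.08. Tfap2c, an AP-2 factor of epidermal differentiation, was the only 1 called with the trend: it fell 7.68-fold (adjusted p of 0.0376 in limma with the trend), with signals of 603 and 359 on bulge replicates 2 and 1, against 3460 and 3688 on total replicates 2 and 1. Ly6d, a surface protein of differentiating keratinocytes, had the lowest difference without overlap, at -3.13, and was not called by either fit. The Krüppel-like factor Klf5, at -2.56, was not called by either fit but passed when dim genes were removed before the fit (adjusted p of 0.0400 in limma). The lysosomal protease Ctsl lay higher by 1.71 and the AP-2 factor Tfap2b by 1.07, neither called by either fit. The membrane serine protease Prss8, not above background on either total array, lay at least 1.48-fold higher in bulge cells and was likewise not called.

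Between the bulge arrays, replicate 2 was over 2-fold above replicate 1 for 9 of 17 other structural barrier genes and for 2 of 24 other transcription factors, beside 13.9% of all genes. In the replicate fit with the trend 3 of the 77 were called, named here after their values were seen. Crct1, a cysteine-rich protein encoded beside the Lce genes, had signals of 3547 and 263 on bulge replicates 2 and 1, against 723 and 232 on total replicates 2 and 1. Cst6, a cysteine protease inhibitor of the cornification pathway, had a replicate difference of 2.18 and Stfa3, a stefin, of 2.07.

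Markers of other cell compartments are given beside these gaps. Cst6, Elovl3 and Trp63 are also in the lists of other barrier genes, so the counts are not separate. The 5 suprabasal keratins summed to signals of 47846 and 28050 on bulge replicates 2 and 1, against 62705 and 47176 on total replicates 2 and 1, and 3 of the 5 were higher on bulge replicate 2. Krt10, a keratin of the spinous layer, had 25650 and 14290 on bulge replicates 2 and 1, against 32170 and 21849 on total replicates 2 and 1. Krt1, its partner, fell in the bulge group (adjusted p of 0.0297 in limma with the trend), at 1118 and 699 on bulge replicates 2 and 1, against 9222 and 8379 on total replicates 2 and 1. Krt2 was above background on no array.

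Sebaceous markers also lay higher on bulge replicate 2, in 8 of 9 genes, and 3 of the 9 were above background on no array. They summed to 11531 and 8505 on bulge replicates 2 and 1, against 10462 and 10654 on total replicates 2 and 1. Leukocyte markers lay higher on bulge replicate 2 in 9 of 11 genes, beside 5893 of all 12393 genes. Yet both bulge arrays lay below both total arrays for all 11. Ptprc, Cd3e, Cd3g, Cd3d, Fcer1g and Tyrobp were above background on neither bulge array. The leukocyte sums were 1572 and 1152 on bulge replicates 2 and 1, against 13125 and 10700 on total replicates 2 and 1. The part of suprabasal, sebaceous and leukocyte RNA in the barrier gene values was not tested.

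Other compartments had lower sums on bulge replicate 2 than on bulge replicate 1. The 11 basal keratinocyte markers summed to 91553 and 106270 on bulge replicates 2 and 1, against 103000 and 84480 on total replicates 2 and 1. The 10 bulge markers summed to 62360 and 72368 on bulge replicates 2 and 1, against 27780 and 22585 on total replicates 2 and 1. The 9 infundibulum and isthmus markers summed to 17640 and 23512 on bulge replicates 2 and 1, against 46703 and 39377 on total replicates 2 and 1, although 5 of the 9 were higher on bulge replicate 2. Fst, higher on both bulge arrays than on both total arrays, had 9727 and 17793 on bulge replicates 2 and 1. It made up most of both bulge sums of this list, and the lower sum on bulge replicate 2 rests on it. The stress keratins, fibroblast and melanocyte markers had lower sums on bulge replicate 2 as well. These were 17062, 2726 and 3096 on bulge replicate 2, against 23276, 5510 and 6868 on bulge replicate 1. Krt6a, Col1a2 and Mitf, in that order, made up most of both bulge sums of these lists. Higher on bulge replicate 2 were 1 of 4 stress keratins, 2 of 8 fibroblast and 2 of 5 melanocyte markers. Mitf had 2460 and 6125 on bulge replicates 2 and 1 and was higher in the bulge group. For the other 4 melanocyte markers both bulge arrays lay below both total arrays. The part of these compartments in the barrier gene values was not tested.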

How the data were processed

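The authors deposited 1 intensity per probe set and array, not log transformed, for 4 arrays. GCOS, RMA, affy 1.36 and R 2.15.1 are listed, with no role or order, in the submitters' processing notes, and which of them made the deposited intensity is not given in the sources used here. Amplification by oligo-dT T7 priming started from 200 ng of RNA, per the labels' protocols. Log2 of the deposited intensity was taken with no pseudocount. Of 22690 probe sets, 20380 had 1 gene symbol, 691 had several and 1555 none, and 64 were controls; only the first were used, with symbols updated by Entrez ID (20351 matched) to RefSeq names. Titles gave the groups, because all 4 samples carry 1 and the same cell type label.

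Tests were limma 3.58.1 in R 4.3.3 (lmFit, eBayes), on group alone, and on group plus replicate number for the replicate comparison, two-sided with Benjamini-Hochberg adjustment over 12393 genes and a threshold of 0.05. The fits were also run on simulated data that gave all 4 arrays the same spread. Here the bulge arrays differed more than the total arrays, so those runs do not measure the error rates of these data. A group at background on both arrays has only a bound, against the background level, and such bounds leave out sampling error. All 33 measured members are named. Of other barrier genes, those called by either fit and the 3 largest differences each way without overlap, above background on both arrays of the brighter group, are named. Members, lists and tests were chosen with earlier results of these data known. Alternatives were an intensity trend, a robust prior, median centring, quantile normalization, a filter on dim genes, log2 of signal plus 32, the mean of probe sets, a replicate block and each array left out.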

Additional observations from a re-analysis of the deposited data

How the results depend on the processing

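Bulge against total, limma called 0 genes (1297 at an unadjusted p under 0.05) and also 0 with a robust prior, median centring, quantile normalization, the mean of probe sets, the replicate block or any array left out. It called 134 with the trend (69 higher, 65 lower), 222 with the filter on dim genes (104 higher, 118 lower) and 37 with log2 of signal plus 32 (18 higher, 19 lower). Members called were 0 throughout, except for 1 with the filter, Sprr1a, which passed it through its total mean alone. For replicate 2 against replicate 1 the calls were 0, but 121 with the trend (64 higher, 57 lower; 1 member) and 809 with the filter (403 higher, 406 lower; 7 members). With an array left out, the replicate fit has no residual degree of freedom and was not run. The replicate block changed no member's call (0 called); samples share only a number, and 1823 genes had an unadjusted p under 0.05 with it. With 1 array left out, the lone array of a group is assumed to vary like the other group.

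Differences between groups that turned sign with an array left out ranged from -0.36 to 1.74 for Lor, -0.37 to 0.81 for Flg, -0.083 to 3.14 for Hrnr, -0.67 to 0.094 for Rptn, -0.61 to 0.60 for Sprr2d, -0.56 to 1.45 for Lce1a1, -0.23 to 1.87 for Lce1b, -1.11 to 2.28 for Lce1f, -0.26 to 0.74 for Lce3c and -1.42 to 0.82 for Tgm3. They ranged from -0.90 to 2.10 for Asprv1, -4.62 to 2.24 for Klk7, -0.64 to 3.88 for Alox12b, -0.094 to 0.63 for Dmkn, -2.18 to 0.70 for Krtdap, -0.63 to 1.15 for Cdsn, -0.61 to 1.09 for Gjb5 and -0.33 to 0.073 for Klf4. Members above both total arrays numbered 3 to 17 and below 13 to 22 with 1 array left out, an alternative added after seeing the data. The median difference of members ranged from -0.61 to 0.48. Sprr2d, at -0.0078, was 0.060 with median centring, 0.029 with quantile normalization and 0.010 with log2 of signal plus 32. Of the replicate differences, Aloxe3 turned to 0.029 and Klf4 to 0.028 with median centring, Casp14 to -0.033 with log2 of signal plus 32, and Klf4 to 0.19 and Klf5 to -0.25 with the mean of probe sets. Bulge replicate 2 lay over 2-fold above bulge replicate 1 for 17 members with median centring, quantile normalization or the mean of probe sets and 13 with log2 of signal plus 32 (8.66% of all genes). For the total arrays, the 3 members became 6 with median centring (7.88% of all genes). The cause of these changes was not tested. The 9 members at background on every array limit what this depth of signal can show.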
